A study of Mus musculus with 15 samples.

Results

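The data compared here are the RNA sequencing libraries of mutant LSK cells from mice given AG221 alone and from mice given vehicle. LSK cells lack mature lineage markers and carry Sca-1 and c-Kit, and they include the stem cells and multipotent progenitors of blood. The comparison was defined by the treatment label of each library, and it used 3 AG221 libraries (A8, A9 and A10) and 3 vehicle libraries (A1, A3 and A4) of the 15 libraries in the series. Of 45232 gene IDs in the count table, 17834 passed the filter on low counts and were tested.

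The cells of both groups are labelled C57BL/6 and came from mice that had been lethally irradiated and had received marrow carrying Idh2 R140Q and Jak2 V617F, mixed with normal CD45.1 support marrow. The mutant alleles had been switched on with Mx1-Cre, which polyI:polyC induces and which is not restricted to blood cells. Vehicle or AG221 at 40 mg/kg was given by gavage 2 times a day for 21 to 28 days, and the last dose was given about 1.5 hours before the mice were killed. The study's methods also name a second AG221 dose, and the dose here is that of the sample labels. CD45.2+ LSK cells were then sorted, so that cells of the host and of the support marrow were excluded by their surface marker. By the methods, adult mice of both sexes and of a wide span of ages were used across the experiments, and the age of each group is not stated. Whether cells of several mice were pooled into a library is not stated either. The p-values therefore measure the spread between libraries, and the main fit estimated that spread over all 15 libraries in 5 groups.

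IDH2 is the mitochondrial enzyme that converts isocitrate to 2-oxoglutarate. The R140Q form instead turns 2-oxoglutarate into 2-hydroxyglutarate, which inhibits enzymes that need 2-oxoglutarate, among them the TET DNA demethylases and the JmjC histone demethylases, and mutant IDH2 is known to hold back the maturation of myeloid cells. AG221 (enasidenib) blocks the mutant enzyme. JAK2 V617F keeps the JAK/STAT pathway on without cytokine, and AG221 does not target it.

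Each library held 22116122 to 32174287 counts in genes. At this depth 3 counts corresponded to 0.0957 to 0.141 CPM (counts scaled to the library size, with TMM factors). The AG221 libraries did not form 1 cluster. On the first principal component of the 6 libraries, which held 47.3% of the variance, A8 lay at 83.8 and A10 at 63.6, whereas A9 lay at -25.9, between the vehicle libraries at -63.9, -47.5 and -10.0. The correlation of log2 CPM across genes was 0.983 between A8 and A10, and 0.960 and 0.966 between A9 and each of these. With the 3 vehicle libraries A9 correlated at 0.972 to 0.977. Genes are not independent replicates, and these correlations only describe the libraries. No pair of libraries agreed within sampling noise, and each was counted as 1 replicate.

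The sorted cells carried the markers of their gate. Kit, the receptor for stem cell factor, measured 1130.1, 1369.7 and 859 CPM with vehicle and 984, 739.8 and 992 CPM in A8, A9 and A10. Ly6a, which encodes Sca-1, measured 166, 71.9 and 13.1 CPM with vehicle and 148, 109 and 129 CPM with AG221. Ly6a was thus low in vehicle A4, and the groups overlapped for both genes. Ly6a was named after its values were seen. The sum over 5 gate genes was 2159 to 3073 CPM with vehicle and 2170.1 to 2481 CPM with AG221.

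The targeted enzyme was examined first. Idh2 (ENSMUSG00000030541, GRCm38 chromosome 7, 80094846 to 80115392) measured 212, 368 and 461 CPM with vehicle and 55.1, 335 and 65.9 CPM in A8, A9 and A10. It was thus low in A8 and A10 and within the vehicle range in A9. The log2 fold change of AG221 over vehicle was -1.19 (SE 0.60, adjusted p = 0.233 by the quasi-likelihood test of edgeR, adjusted after Benjamini and Hochberg). It was -2.52 (SE 0.47, adjusted p = 0.00233) without A9, and -2.19 without A9 and with offsets for GC content. The count does not separate the mutant from the normal allele. Jak2 (chromosome 19, 29251828 to 29313080) measured 21.8, 20.1 and 24.1 CPM with vehicle and 26.7, 31.5 and 27.0 CPM with AG221. Every AG221 library was above every vehicle library for Jak2, but the log2 fold change of 0.37 (SE 0.16, adjusted p = 0.18) did not pass the test.

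None of the 8 genes of IDH and 2-hydroxyglutarate metabolism passed the test with all libraries, and their median log2 fold change was 0.33. D2hgdh, which breaks down D-2-hydroxyglutarate, the form that mutant IDH2 makes, measured 32.0, 35.1 and 25.8 CPM with vehicle and 35.1, 23.5 and 31 CPM with AG221. These ranges overlapped, and the log2 fold change of -0.05 (SE 0.18) changed sign with the normalization. Idh1, the cytosolic relative of Idh2, measured 106, 107 and 141 CPM with vehicle and 239.9, 139.9 and 174 CPM with AG221. A9 was just under the highest vehicle library for Idh1, and the log2 fold change was 0.65 (adjusted p = 0.0956), or 0.81 (adjusted p = 0.00905) without A9. Of the NAD-dependent enzyme of the citric acid cycle, Idh3a, Idh3b and Idh3g had log2 fold changes of 0.47, 0.20 and 0.49, and for Idh3g alone every AG221 library was above every vehicle library.

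Genes that rose with AG221 included Ctsg, a granule protease of neutrophil precursors, the Fc receptor Fcgr3, and Rpl11, Ndufb3 and Sem1 of the ribosome, the respiratory chain and the proteasome. Genes that fell included S1pr1, a sphingosine 1-phosphate receptor, Kdm6a, a histone demethylase, and 6 genes named Zfp. Of the 17834 genes tested, 84 rose (0.471%) and 92 fell (0.516%), 176 in all (0.987%), at an adjusted p under 0.05 by edgeR's quasi-likelihood test over all 15 libraries. Of the genes that rose 82 were protein coding, as were 90 of those that fell. The change was at least 2-fold for 23 of the genes that rose and for 39 of those that fell, with median absolute log2 fold changes of 0.84 and 0.95. For all 176 genes the 3 AG221 libraries lay outside the range of the 3 vehicle libraries. Over all genes tested, the AG221 libraries were all above the vehicle libraries for 2267 genes (12.7%) and all below for 1295 genes (7.26%). The smallest adjusted p was 0.0252, for Dmkn, and most of the rest were between 0.0458 and 0.05, while 4498 genes had an unadjusted p under 0.05. The calls therefore stood at the edge of the threshold. When only the 6 vehicle and AG221 libraries were fitted, no gene passed, with 2678 genes at an unadjusted p under 0.05. Likewise no gene passed when A8, A10, vehicle A1 or vehicle A4 was left out of the full fit (2577, 2941, 4526 and 3831 genes at an unadjusted p under 0.05), 30 passed without vehicle A3, and 4823 passed without A9, while DESeq2 called 2244 genes. The split of higher and lower calls was 123 and 90 with RLE normalization and 571 and 167 with upper quartile normalization.

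**Figure D1:**
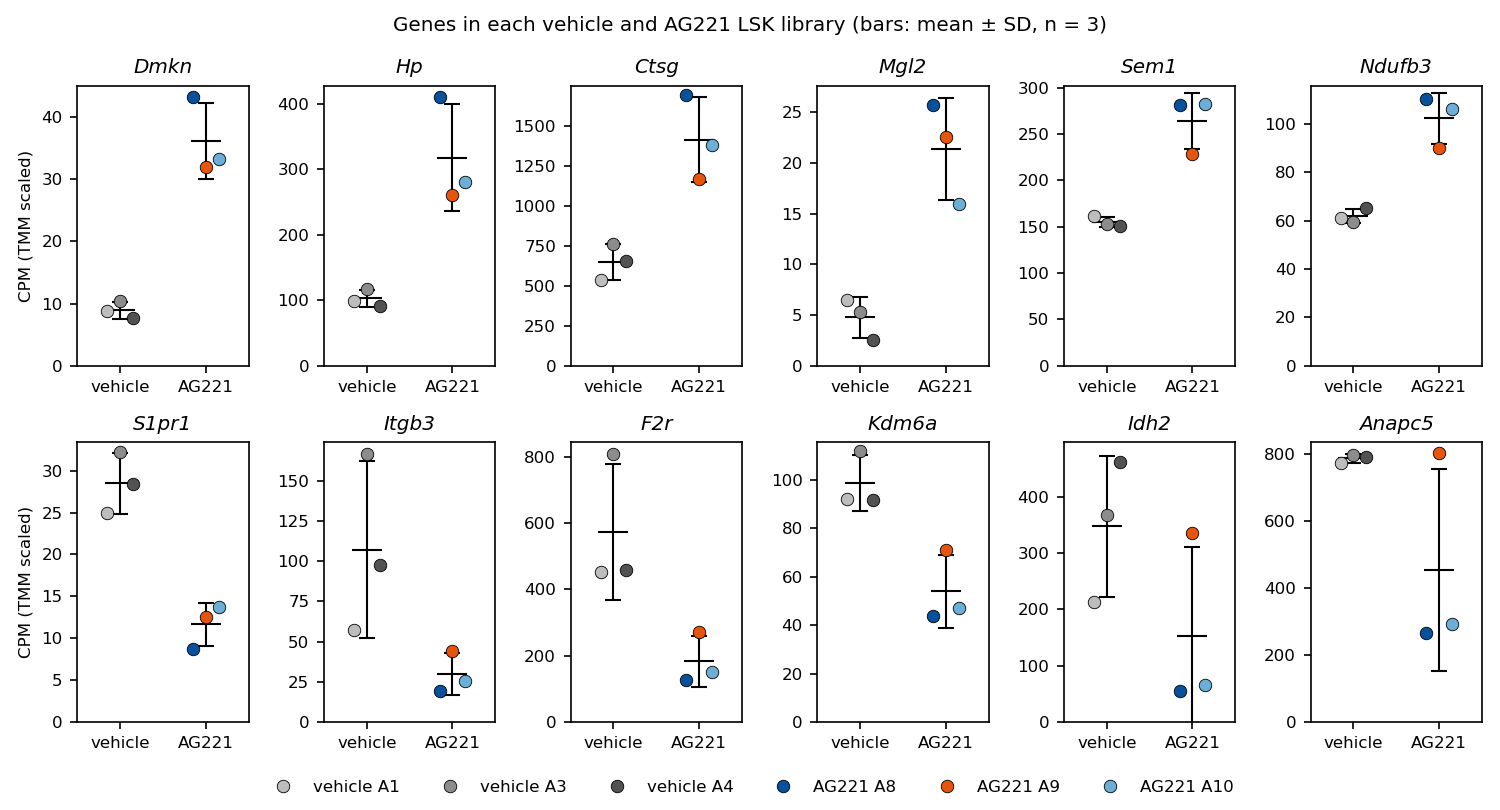
CPM of 12 genes in each vehicle and AG221 library, on linear axes from 0. Points are libraries, horizontal lines the mean and bars ± 1 SD (n = 3), and the lower bar of Idh2 with AG221 runs below 0 and is not drawn there. The 3 AG221 libraries are apart from the vehicle libraries in the first 10 panels, while for Idh2 and Anapc5 A8 and A10 are below all vehicle libraries and A9 is not.

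Dmkn (dermokine, ENSMUSG00000060962, chromosome 7, 30763756 to 30781063) had the smallest p-value. It measured 8.80, 10.4 and 7.62 CPM with vehicle and 43.2, 31.9 and 33.3 CPM with AG221, so that the lowest AG221 library was more than 3 times the highest vehicle library. The mean was 8.93 ± 1.38 CPM with vehicle and 36.1 ± 6.16 CPM with AG221 (SD, n = 3), a log2 fold change of 2.02 (SE 0.25, edgeR adjusted p = 0.0252). Saa3, an acute-phase serum amyloid made by phagocytes, had the largest rise among the called genes, from 0.639, 0.223 and 0.355 CPM to 13.6, 3.75 and 4.73 CPM, a log2 fold change of 4.18 (SE 0.79). Saa3 and the other genes named in this paragraph were apart from vehicle in A9 as well as in A8 and A10. Hp encodes haptoglobin, which is stored in neutrophil granules and binds free haemoglobin. It measured 99.6, 117 and 92.0 CPM with vehicle and 412, 262 and 281 CPM with AG221, and its log2 fold change was 1.63 (SE 0.25).

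Several granule and phagocyte genes rose. Mgl2, a C-type lectin of macrophages and dendritic cells, rose from 6.50, 5.26 and 2.49 CPM to 25.7, 22.6 and 15.9 CPM (log2 fold change 2.17, SE 0.36). Fcgr3, which encodes the Fc receptor CD16, rose from 38.9, 73.1 and 47.6 CPM to 148, 112 and 138 CPM (1.32, SE 0.24). Trem3, an activating receptor of myeloid cells, rose from 25.9, 46.1 and 31.8 CPM to 123, 77.6 and 95.2 CPM (1.51, SE 0.27). For all 3 genes A9 was above every vehicle library, as were A8 and A10. Cyba, a subunit of the phagocyte NADPH oxidase, rose by 0.71 on the log2 scale. Slpi, an inhibitor of neutrophil proteases, Clec5a, a receptor of monocytes and neutrophils, and F10, coagulation factor X, rose by 1.38, 1.78 and 1.40. Prss57, a serine protease of neutrophil granules, rose by 1.03, but 40.7% of its exonic length overlapped a gene on the other strand, and whether counting used strand is not given in the sources used here. Each of these 8 genes had an adjusted p of 0.0458. Sort1, the sorting receptor sortilin, rose from 18.3, 19.1 and 14.5 CPM to 32.6, 44.1 and 29.6 CPM (1.03, SE 0.17), with A9 the highest library. Saa3, Slpi, Clec5a, Prss57 and F10 were named after their values were seen.

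The neutrophil marker list showed the same direction in every member. All 18 markers had a positive log2 fold change, with a median of 1.49 against -0.01 over all genes tested, of which 8823 were positive. Only Ctsg passed the test. Ctsg encodes cathepsin G, a protease of the azurophil granules that form at the promyelocyte stage, and it measured 536, 758 and 652 CPM with vehicle and 1691, 1168 and 1383 CPM with AG221 (log2 fold change 1.12, SE 0.24, edgeR adjusted p = 0.0489). The AG221 libraries were above all vehicle libraries for 13 of the 18 markers, and for 12.7% of all genes. Mpo, the myeloperoxidase of the same granules and the most abundant of them, measured 5191, 7869.6 and 6948 CPM with vehicle and 12390.1, 10808 and 10439 CPM with AG221 (0.75, adjusted p = 0.0813). Elane, neutrophil elastase, measured 1214, 3139.8 and 1125 CPM with vehicle and 4822, 4415 and 3680.5 CPM with AG221 (1.24, adjusted p = 0.0625). In each case the lowest AG221 library was above the highest vehicle library, by a small margin for Elane because vehicle A3 was high. Prtn3, proteinase 3, and Ms4a3, a marker of granulocyte and monocyte progenitors, had log2 fold changes of 0.77 (adjusted p = 0.0885) and 1.13 (adjusted p = 0.0537). S100a8, a calcium-binding protein of later neutrophils, measured 55.1, 82.9 and 14.5 CPM with vehicle and 148, 164 and 167 CPM with AG221 (1.65, adjusted p = 0.0916). Secondary granule genes were far lower than primary granule genes in both groups, and Ltf, lactoferrin, measured 33.3, 11.1 and 18.5 CPM with vehicle and 50.1, 43.0 and 91.2 CPM with AG221. Prtn3, Mpo, Elane, Ms4a3, S100a8 and Ltf were named after their values were seen. In bulk samples such as these, more (or fewer) cells of a type and more (or less) RNA per cell cannot be told apart. The neutrophil markers summed to 8186 to 13458 CPM with vehicle and 18467 to 21812 CPM with AG221, and none was at 0.

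The promoters of 3 of these protease genes are shown because Ctsg, Elane and Prtn3 encode proteases of the same granule. Of these only Ctsg passed the test. Sequences are from RefSeq (GRCm38.p6), 250 bases before to 50 bases after the annotated start, in the direction of transcription. Capitals mark the motif GAGGAA, which was searched on both strands as GAGGAA and TTCCTC and which holds the GGAA core that ETS factors such as PU.1 bind.
Ctsg, chr14:56102525-56102824, minus strand: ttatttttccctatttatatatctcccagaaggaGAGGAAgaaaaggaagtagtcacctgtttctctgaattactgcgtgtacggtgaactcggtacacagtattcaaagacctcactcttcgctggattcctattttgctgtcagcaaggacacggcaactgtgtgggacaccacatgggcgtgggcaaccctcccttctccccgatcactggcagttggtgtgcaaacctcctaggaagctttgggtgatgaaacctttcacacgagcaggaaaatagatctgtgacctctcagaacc
Elane, chr10:79886062-79886361, plus strand: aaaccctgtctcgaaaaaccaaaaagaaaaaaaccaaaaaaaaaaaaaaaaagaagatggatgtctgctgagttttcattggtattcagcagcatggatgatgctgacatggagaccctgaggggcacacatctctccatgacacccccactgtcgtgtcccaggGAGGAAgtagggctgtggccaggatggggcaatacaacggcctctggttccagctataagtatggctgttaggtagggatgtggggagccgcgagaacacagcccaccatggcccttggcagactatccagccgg
Prtn3, chr10:79879417-79879716, plus strand: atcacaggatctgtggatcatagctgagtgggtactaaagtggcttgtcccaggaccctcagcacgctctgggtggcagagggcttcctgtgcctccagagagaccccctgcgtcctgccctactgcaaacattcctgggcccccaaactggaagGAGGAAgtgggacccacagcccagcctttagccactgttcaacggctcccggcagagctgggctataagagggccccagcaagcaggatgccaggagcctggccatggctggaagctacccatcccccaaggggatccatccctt
The motif began at base 35 in Ctsg, 166 in Elane and 156 in Prtn3. It was held by 11 of the 17 neutrophil markers with a promoter entry, out of 18 listed, and by 9289 of 32851 promoters of this length (28.3%). A match of letters is a description of the sequence and not a binding site.

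Of 18 monocyte and dendritic cell markers, 17 had a positive log2 fold change, with a median of 0.60. Fcgr3 and Mgl2 passed the test. Ccr2, the chemokine receptor of inflammatory monocytes, measured 416, 246 and 541 CPM with vehicle and 981, 462 and 685 CPM with AG221, with overlap. F13a1, the coagulation factor XIII subunit of monocytes, measured 315, 248 and 264 CPM with vehicle and 755, 443 and 522 CPM with AG221, without overlap (1.06, adjusted p = 0.0971). Both were named after their values were seen. The marker sum was 1049 to 1507 CPM with vehicle and 1739 to 2792 CPM with AG221. T and NK markers summed to 426 to 487 CPM with vehicle and 623 to 783 CPM with AG221, but most of this was Nkg7, a granule membrane protein, at 454, 405 and 419 CPM with vehicle and 760, 596 and 680 CPM with AG221 (0.67, edgeR adjusted p = 0.0525). Of the 12 T and NK markers tested 6 were positive, and the other 11 overlapped between the groups. Lymphoid and B-lineage markers summed to 139 to 424 and 380 to 403 CPM. Erythroid markers summed to 2533 to 4154 and 3440.1 to 4637 CPM, and mast cell and basophil markers to 790.0 to 1299.8 and 795 to 949 CPM. No erythroid, mast cell, T or NK, or B-lineage marker passed the test, and none of their markers was at 0 in all 6 libraries.

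None of the list of 12 myeloid transcription factors passed the test with all libraries. Without A9 none rose and 3 (25%) fell, against 18% of all genes, namely Spi1, which encodes PU.1 (-2.05, edgeR adjusted p = 0.0154), Irf8 (-1.81, adjusted p = 0.0393) and Runx1 (-1.26, adjusted p = 0.0246). Spi1 was named after its values were seen. The 12 genes of the list summed to 336 to 533 CPM with vehicle, and to 209, 592 and 195 CPM in A8, A9 and A10. A9 was thus above the vehicle libraries, and A8 and A10 were below them.

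Of 79 ribosomal protein genes 75 had a positive log2 fold change, with a median of 0.48, and the AG221 libraries were above all vehicle libraries for 70 of them, and for 12.7% of all genes. Fau and Rpl11 passed the test. Rpl11, a protein of the large subunit, measured 151, 143 and 151 CPM with vehicle and 228, 203 and 243 CPM with AG221 (log2 fold change 0.60, SE 0.13, edgeR adjusted p = 0.0458). Ribosomal protein genes took 2.27% to 2.39% of counts with vehicle and 2.83% to 3.38% with AG221, which placed A9 closest to vehicle but still above it. Without A9, 64 of the 79 rose and 2 fell, where 9.08% of all genes tested rose and 18% fell.

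Complex I passes electrons from NADH to ubiquinone, and 31 of its 36 listed genes had a positive log2 fold change (median 0.56). Its accessory subunits Ndufb3, Ndufa11 and Ndufb7 rose, by 0.72, 0.74 and 0.76. Ndufb3 measured 61.3, 59.5 and 65.3 CPM with vehicle and 110.4, 90.1 and 106 CPM with AG221. Of the 40 genes of complexes II to V, 31 were positive (median 0.54), and Cox7a2, a subunit of cytochrome oxidase, and Atp5j, a subunit of ATP synthase, rose by 0.78 and 0.64. The mean over the genes of complexes II to V was smaller in A8 and A10 (0.12 and 0.15 above the vehicle mean) than in A9 (0.38), and vehicle A4 was at 0.16. Without A9, 25 (62.5%) of these 40 genes rose and 8 (20%) fell, and for complex I 25 (69.4%) rose and 5 (13.9%) fell, against 9.08% and 18% of all genes. The 10 mitochondrially encoded genes tested were all positive (median 0.58), and mt-Nd4, a core subunit of complex I, rose from 318, 308 and 346 CPM to 526, 440.4 and 504 CPM (0.60, SE 0.13). Counts in mitochondrially encoded genes were 0.980% to 1.06% of a library with vehicle and 1.23% to 1.46% with AG221.

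Of 33 proteasome genes 27 were positive (median 0.53), and Sem1, a small subunit of its regulatory particle, rose from 161, 153 and 151 CPM to 281, 229 and 282 CPM (0.77, SE 0.13). Psme4, a proteasome activator outside that list, rose from 24.4, 26.2 and 24.1 CPM to 45.7, 45.2 and 40.3 CPM (0.81, SE 0.14), nearly alike in the 3 libraries. Among NRF2 targets, which serve the defence against oxidants, 12 of 15 were positive (median 0.47). Pgd, of the pentose phosphate pathway that supplies NADPH, rose by 0.79, and Ftl1, the ferritin light chain, by 0.61. For Ftl1 26.5% of the exonic length overlapped a gene on the other strand. Of 28 citric acid cycle genes 20 were positive (median 0.19). The 26 genes of glycolysis and hypoxia had a median of 0.03, but the glycolytic enzymes Eno1 (0.70) and Gpi1 (0.56) rose. Ldha, lactate dehydrogenase, measured 2288, 1595 and 2322 CPM with vehicle and 3857, 2415 and 3097 CPM with AG221 (0.59, adjusted p = 0.114). The 44 genes of ribosome biogenesis and other MYC targets had a median of 0.38, and the 40 genes of DNA replication and mitosis a median of 0.20, with none called in either list by edgeR. At an adjusted p under 0.05 without A9, 14 (31.8%) rose and 7 (15.9%) fell among the former and 8 (20%) rose and 8 (20%) fell among the latter, against 9.08% and 18% of all genes.

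**Figure D2:**
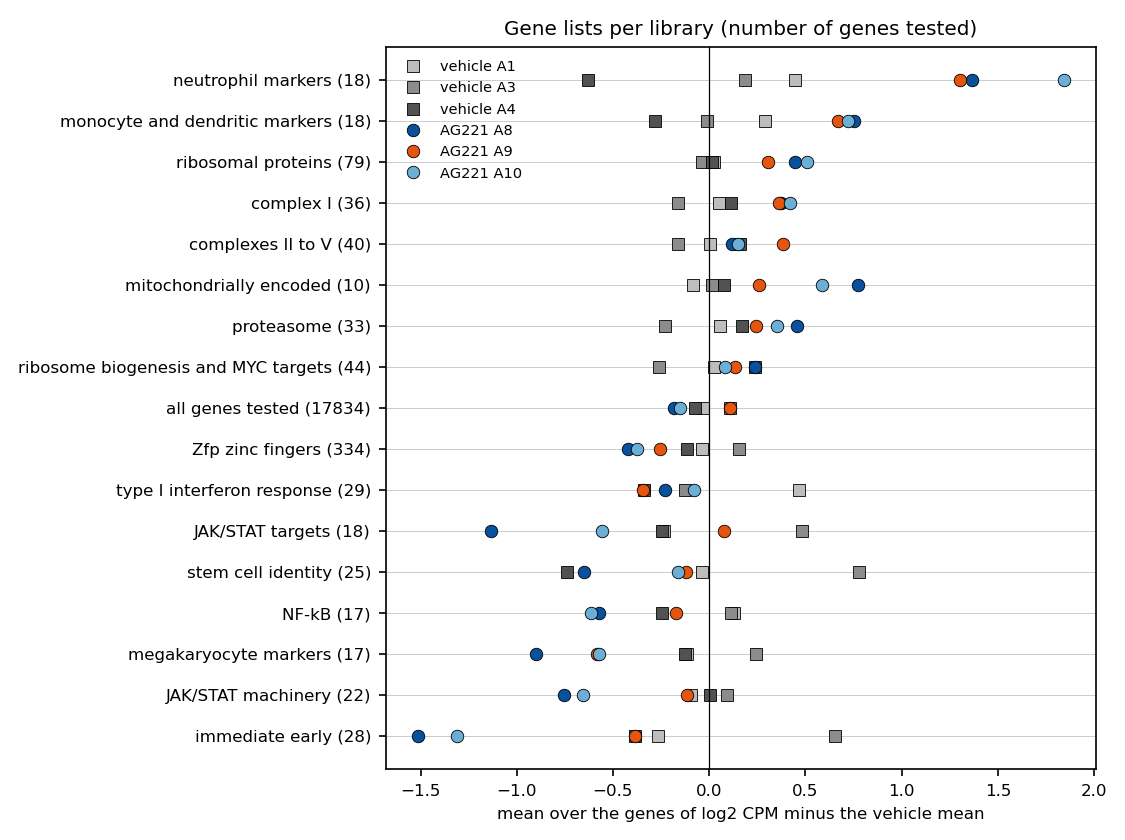
Mean over the genes of each list of log2 CPM minus the vehicle mean, for each library (squares vehicle, circles AG221). The number of genes tested is in brackets. For the neutrophil markers the AG221 libraries are at 1.36, 1.31 and 1.84 against -0.63 to 0.45 for vehicle, whereas for the JAK/STAT machinery and the immediate early genes A9 is with or next to the vehicle libraries.

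S1pr1 (ENSMUSG00000045092, chromosome 3, 115710433 to 115715072) is the receptor by which blood cells sense the sphingosine 1-phosphate gradient and leave tissues. It measured 25, 32.2 and 28.4 CPM with vehicle and 8.72, 12.6 and 13.7 CPM with AG221. All 3 AG221 libraries were below vehicle, and A9 lay between A8 and A10 (log2 fold change -1.29, SE 0.21, edgeR adjusted p = 0.0458). Among 16 genes of niche retention S1pr1 was the one that passed, and their median was -0.02. Usp9x, a deubiquitinase, fell from 209, 261 and 219.9 CPM to 119.9, 126 and 109.8 CPM (-0.96, SE 0.16), again with A9 beside the other AG221 libraries. Ranbp2, a nucleoporin, and Atad2, a bromodomain protein of replicating chromatin, fell by 0.93 and 0.77. Atr, the kinase of the replication stress checkpoint, fell from 171, 164 and 172 CPM to 117, 102 and 102 CPM (-0.66, SE 0.12). Atr was named after its values were seen.

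Itgb3, the integrin beta 3 chain of platelets, fell from 57.4, 167 and 97.9 CPM to 19.4, 44.3 and 25.5 CPM (log2 fold change -1.85, SE 0.40, edgeR adjusted p = 0.0489). Itga2b (CD41), its partner in the platelet fibrinogen receptor, measured 622, 603 and 549 CPM with vehicle and 144, 381 and 233 CPM with AG221 (-1.23, adjusted p = 0.0537). F2r, the thrombin receptor PAR1, fell from 452, 809 and 458 CPM to 126, 271 and 152 CPM (-1.65, SE 0.32). For these genes all AG221 libraries were below all vehicle libraries, and A9 was the highest of the 3. Of the 17 megakaryocyte markers tested, 16 had a negative log2 fold change, with a median of -0.57, and Itgb3 was the one that passed. Vwf, von Willebrand factor, measured 136, 106 and 129.7 CPM with vehicle and 61.2, 61.5 and 82.8 CPM with AG221 (-0.86, adjusted p = 0.1). Pf4, platelet factor 4, measured 138, 126 and 161 CPM with vehicle and 134, 122 and 149 CPM with AG221, and these ranges overlapped. The megakaryocyte markers summed to 1358 to 1574 CPM with vehicle and to 736 to 1003 CPM with AG221. Itga2b and Vwf are also expressed by stem cells primed toward platelets. F2r, Itga2b, Vwf and Pf4 were named after their values were seen.

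Of the 25 stem cell identity genes none was called, 4 were positive and the median was -0.59. Their mean differences from the vehicle mean were -0.65, -0.12 and -0.16 in A8, A9 and A10, and the vehicle libraries ranged from -0.74 to 0.78. The AG221 libraries thus lay inside the vehicle range. Prdm16, a factor needed to maintain blood stem cells, fell from 20.2, 17.1 and 24.2 CPM to 3.55, 6.38 and 10.5 CPM (log2 fold change -1.59, SE 0.33). Tgfbr3, a co-receptor for TGF-beta, fell from 75.0, 100.4 and 103 CPM to 18.3, 41.3 and 24.9 CPM (-1.72, SE 0.33). Zbtb16 (PLZF) fell by 1.03 and Pml by 1.04, and both are transcriptional regulators. Il6, which encodes the cytokine interleukin 6, fell from 4.10, 5.93 and 5.45 CPM to 2.14, 1.64 and 1.6 CPM (-1.52, SE 0.32). Each of these 5 genes had an edgeR adjusted p of 0.0458 and AG221 libraries that were all below vehicle, and all but Zbtb16 were named after their values were seen. The 15 Hox genes and cofactors tested had a median of -0.33 with none called.

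Chromatin enzymes were examined because 2-hydroxyglutarate competes with 2-oxoglutarate. Of 34 genes for 2-oxoglutarate dioxygenases, Kdm6a, the histone H3 lysine 27 demethylase UTX, was the one that passed. It measured 92.2, 112 and 91.8 CPM with vehicle and 43.6, 71.2 and 47.2 CPM with AG221, without overlap (log2 fold change -0.87, SE 0.18, edgeR adjusted p = 0.0458). The median of the list was -0.12, with 10 of 34 positive, and without A9 none rose and 10 (29.4%) fell, against 9.08% and 18% of all genes. The median ran from -0.20 to 0.07 over the alternatives and so had no stable sign. P4htm, a prolyl hydroxylase of the same enzyme class outside the list, fell from 5.87, 10.5 and 6.71 CPM to 1.62, 4.27 and 1.82 CPM (-1.59, adjusted p = 0.049). Kdm1b, a histone demethylase that uses FAD and not 2-oxoglutarate, fell by 1.13. P4htm and Kdm1b were named after their values were seen. None of the 22 genes of DNA methylation and Polycomb passed, and their median was -0.25. Dnmt1, the maintenance DNA methyltransferase, measured 1029, 767 and 759.7 CPM with vehicle and 666, 694 and 695 CPM with AG221, without overlap (-0.31, adjusted p = 0.193).

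Of 334 tested genes named Zfp, which encode zinc finger proteins, 6 fell and none rose, where 0.516% of all genes fell. They were Zfp397, Zfp629, Zfp92, Zfp275, Zfp335 and Zfp507, with log2 fold changes from -2.71 to -0.78. Zfp397 measured 88.7, 105 and 96 CPM with vehicle and 39.5, 58.4 and 43.5 CPM with AG221, and Zfp92 was low in all libraries, at 0.526 to 1.91 CPM with vehicle. The list had a median of -0.23, with 81 of 334 positive, and the AG221 libraries were below all vehicle libraries for 44 genes and above for 7, against 7.26% and 12.7% of all genes. For Zfp335 and Zfp507 28.3% of the exonic length overlapped a gene on the other strand, and Zfp335 lost its call with A9 left out and offsets for GC content.

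Immediate early genes respond within minutes to stimulation and stress. Their mean difference from the vehicle mean was -1.51 in A8 and -1.31 in A10 but -0.38 in A9, and it was -0.38 to 0.65 in the vehicle libraries. Of the 28 genes 27 had a negative log2 fold change, with a median of -1.05. None passed edgeR's test with all libraries, and 13 (46.4%) fell without A9, against 18% of all genes. The AG221 libraries, A9 included, were below all vehicle libraries for 9 of the 28 genes and above for 0, against 7.26% and 12.7% of all genes. Jun measured 285, 891 and 623 CPM with vehicle and 51.7, 365 and 65.8 CPM in A8, A9 and A10 (log2 fold change -1.90, adjusted p = 0.157). Without A9 it was -3.35 (adjusted p = 0.00679). Egr1 measured 375, 1485 and 631 CPM with vehicle and 122, 325 and 157 CPM with AG221, without overlap (-2.05, adjusted p = 0.0971). Fos, the most abundant of the list, measured 2712, 4975 and 1819.7 CPM with vehicle and 1426, 1505 and 1731 CPM with AG221, without overlap (-1.03, adjusted p = 0.155). Vehicle A3 had the highest value of each of these genes, and the vehicle libraries differed among themselves by over 2 times.

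The JAK/STAT machinery, the kinases, receptors and transcription factors of cytokine signalling, split in the same way. Of 22 genes none passed with all libraries (median -0.72, 9 positive), while 11 (50%) fell and 2 rose without A9, where 18% of all genes fell. Stat5a, which acts directly downstream of JAK2, measured 281, 292 and 287 CPM with vehicle and 109, 225 and 152 CPM in A8, A9 and A10, without overlap (-0.83, adjusted p = 0.0614). Stat3 measured 304, 442 and 327 CPM with vehicle and 102, 306 and 103 CPM with AG221, with A9 inside the vehicle range (-1.07, adjusted p = 0.112; -1.80 and adjusted p = 0.000616 without A9). Jak3 measured 121, 199.8 and 204 CPM with vehicle and 20.3, 147 and 27.4 CPM with AG221. The 2 genes that rose without A9, a share of the list (9.09%) like that of all genes (9.08%), were Csf3r, the G-CSF receptor, at 331, 248 and 246 CPM against 438, 259.8 and 371 CPM, and Ptpn6, the phosphatase SHP-1, at 341, 283 and 254 CPM against 406, 297 and 349.7 CPM. The transcriptional targets of the pathway had a median of -0.31 over 18 genes, with none called. Without A9 the median of these targets was -0.84, and 5 (27.8%) fell and 0 rose, against 18% and 9.08% of all genes. The 17 NF-kB genes had a median of -0.54, the 17 p53 targets -0.65 and the 14 MHC class I genes -0.44, with none called. Without A9, 5 (29.4%), 8 (47.1%) and 7 (50%) of them fell, against 18% of all genes. In these lists 1, 0 and 1 genes rose, and B2m was the one of MHC class I (0.49, edgeR adjusted p = 0.014 without A9). Nfkbia, the inhibitor of NF-kB, measured 402, 422 and 472 CPM with vehicle and 116, 361 and 122 CPM in A8, A9 and A10. The type I interferon response had a median of -0.23 over 29 genes, and the interferon-gamma response 0.27 over 20 genes, again with none called by edgeR. Stat3, Stat5a, Jak3, Jun and Egr1 were named after their values were seen.

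A9 was compared with A8 and A10 gene by gene. All 176 genes called with all libraries were also called, in the same direction, when A9 was left out. The count of calls then became 4823, of which 1619 rose (9.08%) and 3204 fell (18%). Of the 1619 higher genes, A9 was above all vehicle libraries for 1074 (66.3%), within their range for 481 and below them for 64. Of the 3204 lower genes, A9 was below all vehicle libraries for 806 (25.2%), within their range for 2093 and above them for 305. The median share of the change of A8 and A10 that A9 showed was 0.35 for the higher genes and 0.083 for the lower genes. Over all genes tested, A9 was above all vehicle libraries for 5148 (28.9%) and below them for 3771 (21.1%). The share of the lower genes with A9 below vehicle was thus near that of all genes. These shares describe the libraries and were not tested. A8 and A10 without A9 are 2 libraries, and choosing A9 as the one to leave out followed from its place among the libraries.

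Single genes show both kinds of pattern. Arhgdib measured 1168, 997 and 1072 CPM with vehicle and 2009, 1384 and 1805 CPM in A8, A9 and A10, with A9 above vehicle. Srgn, the proteoglycan serglycin of secretory granules, measured 1243, 1372 and 1226 CPM with vehicle and 1939, 1540.3 and 1939.9 CPM with AG221. Among the 10 further higher genes with the smallest p-values without A9, A9 was above vehicle for 9 and within the range for Degs2. On the lower side, Rnf40, an E3 ligase for histone H2B, measured 175, 173 and 170.0 CPM with vehicle and 67.7, 142 and 72.1 CPM with AG221. Anapc5, a subunit of the anaphase-promoting complex, measured 774, 798 and 791 CPM with vehicle and 267, 804 and 292 CPM, so that A8 and A10 were far below the vehicle libraries while A9 was above them. Ddx54, an RNA helicase, measured 186, 171 and 194 CPM with vehicle and 53.5, 191 and 67.0 CPM with AG221. For the 10 lower genes of this kind A9 was below vehicle for 5, within the range for 4 and above it for 1. Anapc5 had a log2 fold change of -1.49 (SE 0.12, edgeR adjusted p = 9.97e-05) without A9, and of -0.79 (SE 0.31, adjusted p = 0.139) with it.

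**Figure D3:**
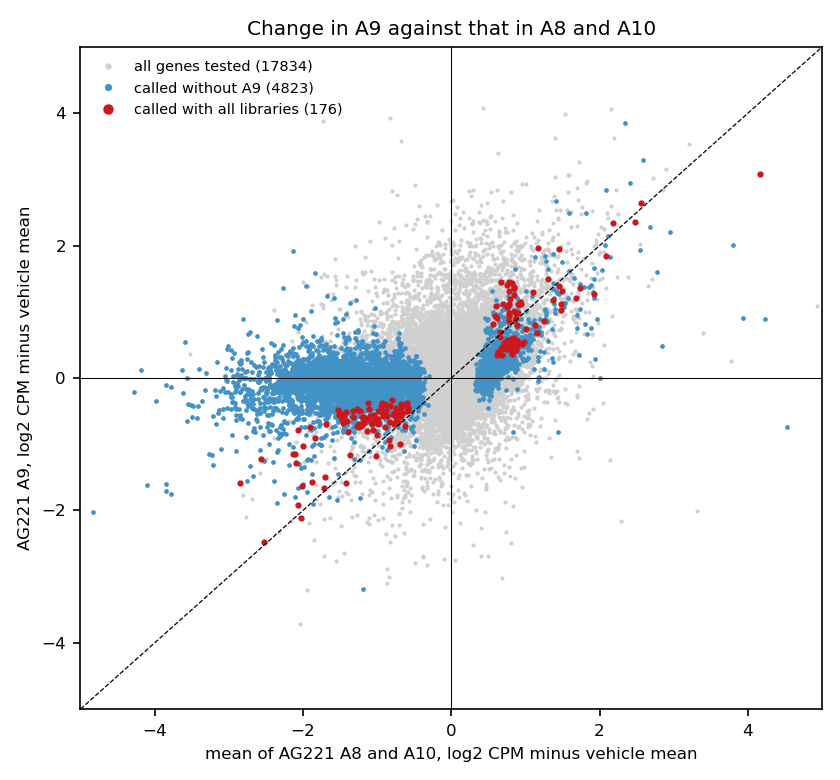
Each point is 1 gene, with the mean change of A8 and A10 from the vehicle mean on the horizontal axis and the change of A9 on the vertical axis, both in log2 CPM. Axes end at 5, and 15 genes are outside. Many genes that are lower in A8 and A10 lie near 0 in A9, and the genes called with all libraries lie in the quadrants where both agree in sign.

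The libraries also differed by the base composition and length of transcripts. In the decile of genes with the highest GC content (57.3% to 78.6%), the median difference from the vehicle mean was -0.87 in A8 and -0.65 in A10 but 0.12 in A9, and it was -0.13 to 0.14 in the vehicle libraries. This decile held 710 of the 3204 genes lower without A9 and 60 of the 1619 higher ones. With offsets for GC content in each library and A9 left out, 4785 genes were called, 2301 higher and 2484 lower, and 171 of the 176 were among them. In that fit the log2 fold change was -2.19 for Idh2 and -1.31 for Anapc5, but it went from -1.61 to -0.84 for Ddx54 and from -1.30 to -0.91 for Rnf40. Zfp335, which was called with all libraries, went from -1.33 to -0.52 and was no longer called (edgeR adjusted p = 0.0957). The immediate early list had a median GC content of 54.5% and the JAK/STAT machinery 53.2%, against 49.0% over all genes. The part of GC content in the remaining differences was not tested. By length, the median of the shortest decile was 0.30, 0.21 and 0.22 in A8, A9 and A10. The ribosomal protein list had a median transcript length of 1059 nt, complex I 1025.5 nt and the neutrophil markers 1196 nt, against 2984 nt over all genes. The genes called lower had a median length of 5683.5 nt, and 78 of 92 were in the longest 3 deciles and 1 in the shortest 2. The genes called higher had a median of 2796.5 nt, with 29 in the longest 3 deciles and 23 in the shortest 2. The part of transcript length in these results was not tested.

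**Figure D4:**
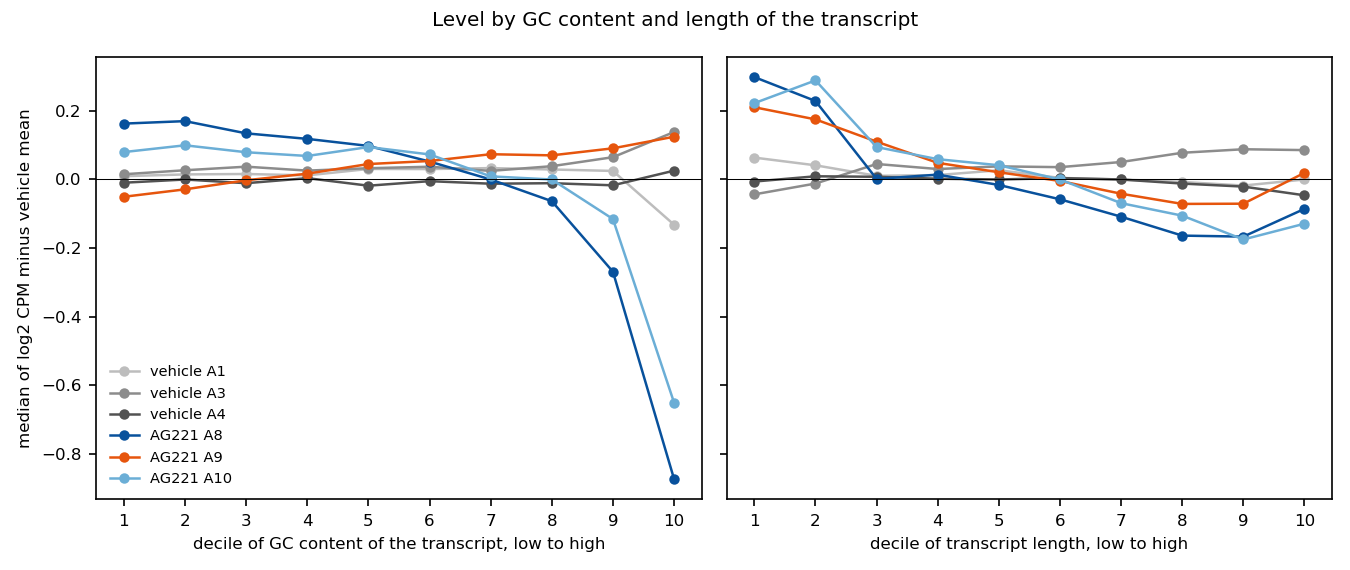
Median over genes of log2 CPM minus the vehicle mean, by deciles of transcript GC content (left) and of transcript length (right), 1 line per vehicle or AG221 library. A8 and A10 drop to -0.87 and -0.65 in the highest GC decile, where A9 is at 0.12, and the 3 AG221 libraries are all above the vehicle libraries in the shortest transcripts.

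The genes called for AG221 were then followed in the other groups of the series, which share the vehicle libraries as reference. Ruxolitinib, a JAK1 and JAK2 inhibitor, was given at 60 mg/kg to mice with the same mutant marrow, combined treatment was both drugs, and WT libraries came from normal LSK cells. The Y-linked Ddx3y had a mean of 0.034 CPM in WT and of 179.6 CPM with vehicle, so the WT libraries also differed in sex from the reference. For the 84 higher genes the median difference from the vehicle mean was 0.93, 0.88 and 0.77 in A8, A9 and A10. It was 0.13 in each ruxolitinib library, -0.04 to 0.14 with combined treatment and -0.41 to -0.15 in WT. These genes were thus highest with AG221 alone, and they were chosen for being high there. For the 92 lower genes the medians were -1.17, -0.65 and -0.99 with AG221, -0.16 to -0.03 with ruxolitinib, -0.40 to -0.33 with combined treatment and -0.30 to -0.11 in WT. The 2398 genes that were lower without A9 and not below vehicle in A9 showed another pattern. Their median was -1.58 in A8, -0.03 in A9 and -1.39 in A10, and it was also low in vehicle A1 (-0.39) and ruxolitinib A16 (-0.65), while the other vehicle and ruxolitinib libraries were at 0.18 to 0.26 and the combined treatment libraries at 0.27 to 0.30. These genes had a median GC content of 52.7%, and in the decile of all genes with the highest GC content ruxolitinib A16 was also low (-0.35). The difference in these genes thus also separated libraries within the vehicle and ruxolitinib groups. For the AG221 and vehicle libraries, however, these medians partly restate how the genes were chosen.

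**Figure D5:**
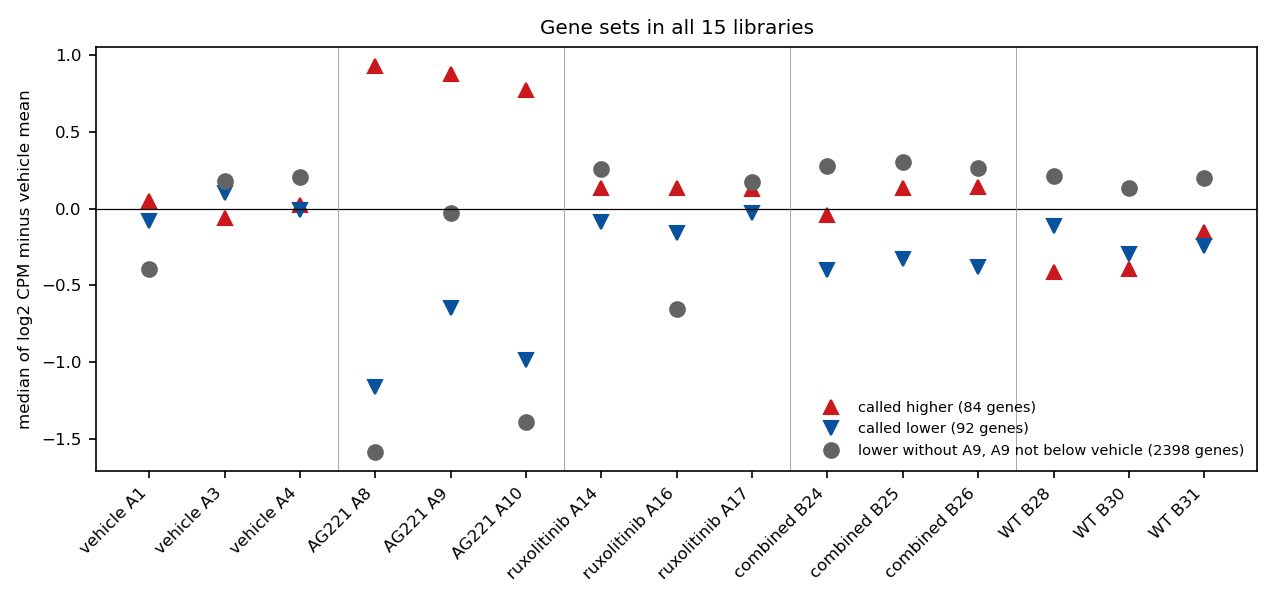
Median of log2 CPM minus the vehicle mean for 3 gene sets in each of the 15 libraries. The 84 genes called higher and the 92 called lower are apart from 0 in all 3 AG221 libraries, while the 2398 genes that were lower without A9 and not below vehicle in A9 are low in A8, A10, vehicle A1 and ruxolitinib A16.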

How the data were processed

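CD45.2+ LSK cells were sorted after removal of mature cells, and amplified RNA (SMARTer) was sequenced with paired-end reads. Per the labels and the study's methods, the authors aligned reads with STAR 2.5.1a to mm10 (GRCm38) and deposited raw counts per Ensembl gene. The Ensembl release and the strand setting are not given in the sources used here. Groups came from the treatment labels. GENCODE mouse release 21 gave symbols, coordinates, GC content and length and matched 44585 of 45232 IDs. All 15 libraries (18836625 to 32174287 counts) entered 1 edgeR 4.0.16 quasi-likelihood fit with 5 groups after filterByExpr and TMM, with Benjamini-Hochberg adjustment over 17834 genes and calls at 0.05. Log2 CPM used a prior count of 2, and the common biological coefficient of variation was 0.313. The script was tested on simulated counts. Lists are described by their counts and medians without a test. Alternatives were DESeq2 1.42.0, limma 3.58.1 voom, other normalizations, filters, GC offsets and leaving out libraries. A second table of normalized counts and the authors' own DESeq2 1.6.3 results were not used. Named genes were, in each direction, the 15 of smallest p-value among called genes without overlap, other than Gm and Rik models, the 10 further ones in each direction without A9, Idh2, Jak2 and the IDH list, and of each list the called members or else the 2 most abundant. The comparison, lists and rules were chosen with earlier results of these data known. Values of a few listed genes are not reported here.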

Additional observations from a re-analysis of the deposited data

How the results depend on the processing

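None of the 176 called genes changed sign in an alternative that gave it an adjusted p, which 164 had in all 17 alternatives and 12 in 15 or 16, but the number of calls depended strongly on the setting, and the cause was not tested. Against 176 calls (84 higher, 92 lower), DESeq2 made 2244 (1151 and 1093), GC offsets 337 (177 and 160), GC offsets without A9 4785 (2301 and 2484), a minimum of 10 counts in every library 906 (597 and 309), and voom with sample weights, in which A9 weighed 0.244 and A10 2.63, 5040 (1824 and 3216). RLE normalization made 213 (123 and 90) and upper quartile normalization 738 (571 and 167), the latter shifting the median of all genes by 0.18 on the log2 scale. Without a filter 206 were called (66 and 140), and the fit of the 6 libraries alone called 0 (0 and 0). The combination of GC offsets with A9 left out was chosen after seeing the data. Leaving out 1 library gave 0 to 4823 calls, 0 to 1619 higher and 0 to 3204 lower. The count was 0 without A8, A10, vehicle A1 or vehicle A4 (with 2577, 2941, 4526 and 3831 genes at an unadjusted p under 0.05 by edgeR) and 30 without vehicle A3, of which 27 were higher and 11 were among the 176. D2hgdh (-0.05) changed sign with GC offsets (0.07, or 0.28 without A9), RLE (0.00), voom (0.00) and upper quartile (0.15), and ranged from -0.17 to 0.09 when 1 library was left out. The list medians of neutrophil markers (1.19 to 1.80), ribosomal proteins (0.47 to 0.71), megakaryocyte markers (-0.74 to -0.31) and immediate early genes (-1.26 to -0.57) kept their sign. Those of stem cell identity genes (-0.87 to 0.02), 2-oxoglutarate dioxygenases (-0.20 to 0.07), DNA methylation and Polycomb (-0.30 to 0.07), type I interferon response (-0.38 to 0.15), heat shock (-0.35 to 0.28), glycolysis and hypoxia (-0.08 to 0.32) and niche retention (-0.04 to 0.16) did not. By the study's methods, mice were matched on blood values, donor chimerism and body weight before they were randomized. No paired analysis was possible because the sample labels do not give these matching groups and the replicate names are not shared between treatments.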

Other observations

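Plasma cell markers varied between libraries without a common direction. Igha, the heavy chain constant region of immunoglobulin A, measured 63.4, 19.9 and 28.2 CPM with vehicle and 1.15, 0.704 and 0.946 CPM with AG221, without overlap (log2 fold change -5.30, SE 1.79, edgeR adjusted p = 0.106). Igkc, the kappa light chain, measured 4.32, 14.4 and 54.1 CPM with vehicle and 27.5, 186 and 58.1 CPM in A8, A9 and A10, with overlap (1.90, SE 1.39, adjusted p = 0.403; 0.82, SE 1.47, adjusted p = 0.731 without A9). Xbp1, a regulator of secretory cells, measured 46.2, 121 and 133 CPM with vehicle and 30.5, 90.7 and 21.6 CPM with AG221. Igha was named after its values were seen. The plasma cell markers summed to 135 to 240.1 CPM with vehicle and to 68.3, 304 and 94.9 CPM in A8, A9 and A10, and their part in the other results was not tested.

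Heat shock genes had no common direction. The median log2 fold change was -0.28 with 6 of 12 genes positive, it ran from -0.35 to 0.28 over the alternatives, and the summed level was 4965 to 6825 CPM with vehicle and 9520, 6063 and 7119 CPM in A8, A9 and A10. Hspa4l, a chaperone of the HSP110 family, fell from 79.2, 96.5 and 105 CPM to 49.7, 62.6 and 48.5 CPM (-0.80, SE 0.16, edgeR adjusted p = 0.0458).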
